A study of Mus musculus with 53 samples.

Results

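The genes described here encode the proteins of the cytosolic ribosome. Members were taken by symbol: genes whose annotated name begins with Rpl or Rps and a number, together with Rplp0 and Rpsa, and without the S6 kinase genes Rps6ka3, Rps6kb2 and Rps6kc1. A gene counted when at least 1 probe set carried its symbol and no other, and its probe set with the highest mean over all arrays stood for it. This gave 35 genes of 8251 on the array, 17 named for the large and 18 for the small subunit. Of these, 29 passed the filter on low signal and were tested, and 6 did not (Rpl32, Rpl38, Rpl39, Rps14, Rps15 and Rps20). A further 39 probe sets list a ribosomal protein symbol beside other symbols; they name no gene here, and the 35 of them that passed the filter are described as a set.

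The cells were NIH-3T3, an immortalised mouse embryo fibroblast line. They had been transduced with a vector carrying EBF1, PPARg2 or no insert and were then given hormones that start adipocyte differentiation, so every group after d0 shares the hormone treatment and the empty-vector cells are its control. PPARg2 is the adipocyte form of the nuclear receptor PPARγ, and EBF1 is a transcription factor best known from early B cells. The vector, PPARg and EBF1 groups have 4 arrays each at d0, 4 each at d2 and 7 each at d4. At d10 there are 3 vector, 3 PPARg and 2 EBF1 arrays, which makes 53 Affymetrix arrays. The labels report 7 stimulation experiments. The promoter that drives each insert, and whether the lines were clonal or pooled, are not given in the labels. Since nothing else says that arrays of a group came from separate cultures, p-values measure the spread between these arrays.

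A ribosome is built from ribosomal RNA and a full set of these proteins, 1 copy of nearly each in every particle, and the proteins are made in matched amounts. Most of their messenger RNAs start with a run of pyrimidines through which the mTOR kinase sets how much is translated, so that their RNA level, which is what an array measures, can stay level while protein output changes. Their genes are among the most highly transcribed in growing fibroblasts, and several serve as reference genes in expression work. Mammalian genomes carry many processed pseudogenes of them, and a few members have a paralog with a more restricted pattern, such as Rpl39l, known in mouse from male germ cells, and Rps27l, a target of p53. Fat cell differentiation takes a dividing precursor out of the cell cycle and into lipid storage.

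Promoters of 9 members that the results below turn on are shown, one of them with both of its annotated starts, because ribosomal protein genes are known for a pyrimidine-rich start and for binding sites of ETS-family factors close to it. Each line gives 70 bases before and 10 after the annotated start (RefSeq, GRCm38.p6), with matches to CTTTCC on the transcript strand or to CCGGAA on either strand in capitals; the 2 motifs can share bases. Of the 10 windows, 4 hold a match and 6 hold none.
Rpl39l (chr16:10170158-10170237, plus strand): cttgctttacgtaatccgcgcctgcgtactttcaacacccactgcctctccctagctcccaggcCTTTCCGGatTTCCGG
Rps10 (chr17:27635235-27635314, minus strand): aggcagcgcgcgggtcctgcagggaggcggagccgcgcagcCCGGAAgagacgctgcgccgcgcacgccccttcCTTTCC
Rpsa (chr9:120127696-120127775, plus strand): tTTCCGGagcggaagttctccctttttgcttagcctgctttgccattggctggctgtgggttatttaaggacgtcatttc
Rpl41 (chr10:128549159-128549238, minus strand): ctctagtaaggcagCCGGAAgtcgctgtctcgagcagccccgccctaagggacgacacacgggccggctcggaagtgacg
Rps3 (chr7:99483700-99483779, minus strand): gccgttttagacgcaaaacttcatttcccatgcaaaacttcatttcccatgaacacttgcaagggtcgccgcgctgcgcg
Rplp0 (chr5:115559397-115559476, plus strand): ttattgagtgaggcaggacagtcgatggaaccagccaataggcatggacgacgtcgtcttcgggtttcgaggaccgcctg
Rps24, first start (chr14:24490608-24490687, plus strand): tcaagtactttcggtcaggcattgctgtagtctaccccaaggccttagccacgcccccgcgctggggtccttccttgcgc
Rps24, second start (chr14:24490683-24490762, plus strand): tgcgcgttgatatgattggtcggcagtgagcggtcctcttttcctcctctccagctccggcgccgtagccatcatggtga
Rps18 (chr17:33955656-33955735, minus strand): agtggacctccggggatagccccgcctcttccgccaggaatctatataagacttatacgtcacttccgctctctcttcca
Rpl37a (chr1:72711190-72711269, plus strand): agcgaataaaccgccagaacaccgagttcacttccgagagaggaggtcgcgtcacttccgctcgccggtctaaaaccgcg

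RefSeq promoters of 250 bases before to 50 after the start were matched for 28 of the 35 members and for 27025 genes in all. CCGGAA, the core of an ETS site, was present on either strand in 17 member promoters (60.7%) and in 16.7% of all promoters. CTTTCC on the transcript strand was present in 14 (50%) against 16% of all, and GCCATNTT, the core of the YY1 motif, on either strand in 7 (25%) against 6.96%. The E-box CACGTG, which Myc binds, was present in 3 (Rpl13a, Rpl19 and Rps19; 10.7%) against 8.09% of all. The EBF palindrome (TCCC and GGGA, 2 bases apart) was found on either strand in no member promoter and in 1.06% of all, and the PPAR-type repeat (AGGTCA and AGGTCA, 1 base apart) in none and in 0.0481% of all. Matches are descriptions of these letters in this window and say nothing of binding.

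The deposited values are linear probe set intensities, scaled to a similar brightness on every array: array medians ran from 142 to 167. Values under 54.5 were set to that floor, log2 values were compared with limma, and a probe set passed when its Benjamini-Hochberg adjusted p over the 7619 tested probe sets was under 0.05. Dates in the comments of the array experiment files fall into 3 sessions, split at gaps of more than 30 days. Whether these are scan dates is not given here. Sessions 1 and 2 each hold 2 arrays of every d0, d2 and d4 group, and session 3 holds the other 3 arrays of each d4 group and every d10 array. All 8 fibroblast markers had tested probe sets. So did all 4 muscle markers (Myod1 read 290 to 646 and Myog 365 to 576) and 4 of the 5 B lymphocyte markers with a probe set (Cd79a read 269 to 490). A tested probe set alone therefore does not name a cell type. Of the epithelial markers Epcam and Krt18 stayed under the floor on all arrays while Krt8 read 261 to 540 and Cdh1 145 to 269, and of the leukocyte markers Ptprc stayed under it while Cd14 read 201 to 502, Cd68 118 to 221 and Csf1r 96.2 to 203. Pparg read 58.3 to 89.3 on PPARg d0 arrays and 16.5 to 21.8 on vector d0 arrays. Ebf1 read 176 to 390 on EBF1 d0 arrays and 197 to 288 on vector d0 arrays, so it does not separate the groups; whether its probes lie within the inserted sequence is not given.

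Ribosomal protein genes gave some of the brightest signals on the array. The mean signal of 22 of the 35 members lay at or above the 95th percentile of all probe sets, while 8 lay below the 50th. Rpl41, which encodes the smallest ribosomal protein, was the brightest non-control probe set on 52 of 53 arrays. Of the 20 brightest probe sets, 7 were members and 17 were members or carried a ribosomal protein symbol beside others. Signals of different probe sets depend on their probes, so this order says nothing of relative transcript amounts. Rpl39 and Rps15 stayed under the floor on all 53 arrays, and the group means of the other untested members ran from 53.3 (Rps14) to 129 (Rpl38); no change in these 6 can be read from these probe sets.

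The members as a set held their place through differentiation, and the median over all tested members was lowest in EBF1 cells at d10. The median log2 signal of the tested members was 12.37 to 12.51 over the d0 arrays, 12.50 to 12.69 over the d2 arrays and 12.37 to 12.63 over the d4 arrays. At d10 it was 12.48 to 12.64 on vector arrays, 12.39 to 12.50 on PPARg arrays, and 12.25 and 12.37 on the EBF1 arrays. The vector and PPARg ranges at d10 meet, and both EBF1 arrays lie below every vector and PPARg array of that day. This did not hold for the 22 members at or above the 95th percentile. Their median at d10 was 12.612 and 12.585 on EBF1 arrays, 12.549 to 12.643 on PPARg arrays and 12.706 to 12.719 on vector arrays. As a share of all summed signal the members made up 3.49 to 3.72% on vector, 3.41 to 3.43% on PPARg, and 3.12 and 3.19% on EBF1 arrays at d10. The actin 3′ to 5′ ratio, a measure of RNA integrity, was 1.30 to 1.59, 1.33 to 1.46, and 1.29 and 1.46 in these groups, and 1.06 to 1.42 at d0.

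**Figure D1:**
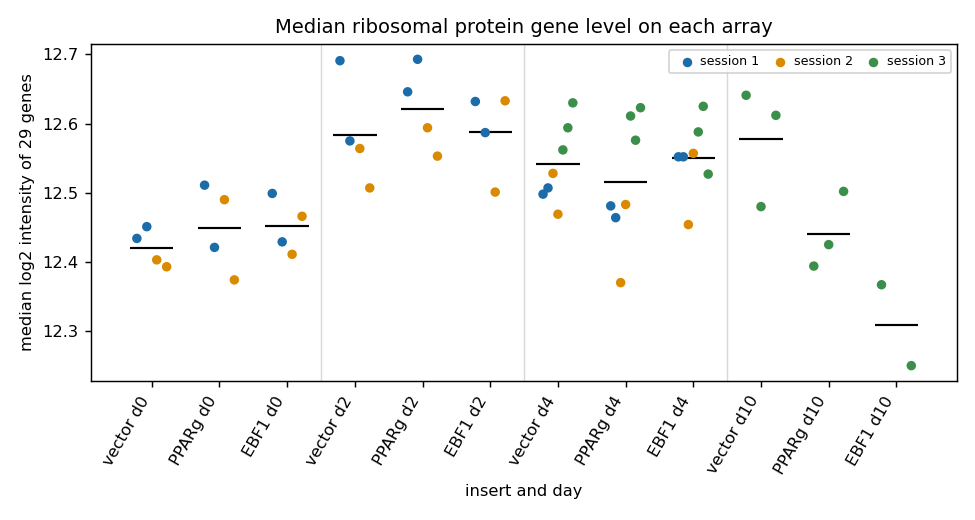
Median log2 intensity of the tested ribosomal protein genes on each of the 53 arrays, by insert and day, with 1 point per array coloured by session and a bar at each group's mean. The d2 arrays reach 12.69, and the 2 EBF1 arrays at d10 (12.25 and 12.37) lie below the other 6 arrays of that day.

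Single members varied little where their signal was bright. The 12 group means of a member spanned a median of 0.36 on the log2 scale (from 0.10 to 1.19), against 0.57 over all tested probe sets. The median span was 0.30 for members with a mean log2 of at least 12 and 0.62 for those below it. For 20 of the 29 members the span was under 0.5, which held for 41.4% of all tested probe sets. The spread between arrays of a group was also smaller, with a median SD of 0.096 against 0.197. Over 25 comparisons the 29 members gave 725 tests, of which 61 passed (8.41%), against 13.1% over all tested probe sets. No passed member changed by 1 or more on the log2 scale: the largest rise was 0.90 and the largest fall was -0.65.

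The narrowest spans belonged to Rpl41, Rpl6, Rps28, Rplp0 and Rpl7a, and the widest to Rps27l, Rpl39l, Rpl22, Rpl13a and Rpl37a. Group means of Rpl41 stayed between 13308 and 14232, a span of 0.10 (1.07-fold), and those of Rpl6, a large-subunit protein, between 6165 and 6597. Rps28, of the small subunit, stayed between 9145 and 9974, Rplp0, the stalk protein and a common reference gene, between 10558 and 11603, and Rpl7a between 6924 and 7626. Rps27l spanned 1.19, from 339 to 473 on the vector d10 arrays up to 684 to 1182 on the PPARg d0 arrays. Each of these widest spans sets a d10 group against a d0 or d2 group, and such groups share no session. Rps27l also differed between sessions at d4. Its means in sessions 1, 2 and 3 were 571, 657 and 517 in vector, 806, 790 and 530 in PPARg, and 898, 924 and 620 in EBF1 cells. Rpl39l and Rpl22 each spanned 0.95, with their highest means in EBF1 cells at d10 and at d2. The 9 members that passed in no comparison were Rpl19, Rpl35a, Rpl41, Rpl6, Rps13, Rps28, Rps29, Rps4l and Rps7.

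Spans were also set against brightness, since many members lie near the top of the range. The median span was 0.30 for the 19 members with a mean log2 of at least 12 and 0.62 for members below it. The 28 other tested probe sets with a mean of at least 12 had a median span of 0.70, and the 35 probe sets that share a ribosomal protein symbol 0.33. Bright probe sets of other genes therefore spanned more than bright ribosomal protein probe sets on the same arrays. The highest signal on an array was 12559 to 14971, and whether Rpl41 was limited by the scanner's or the probes' upper range was not tested.

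**Figure D2:**
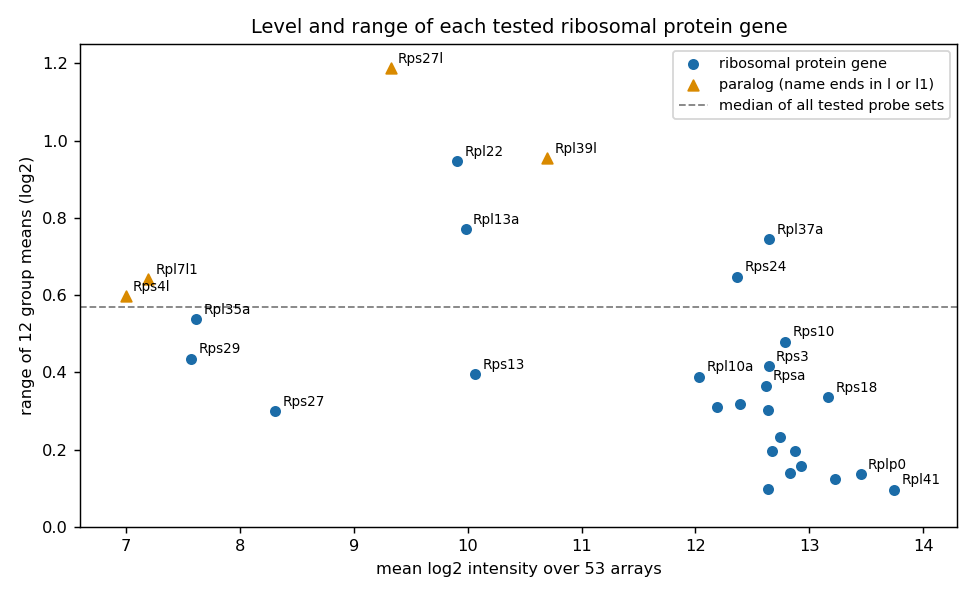
Range (highest minus lowest) of the 12 group mean log2 intensities against mean log2 intensity over 53 arrays, 1 point per tested ribosomal protein gene, with paralogs as triangles and a dashed line at the median of all tested probe sets (0.57). Points at a mean of 12 or more have a median range of 0.30 and those below it 0.62.

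On d0, d2 and d4 at most 3 members passed in any comparison between inserts or with vector. On d0 and d2 few of all tested probe sets passed against vector either, so the lack of passed members there does not set the members apart. In PPARg against vector cells no member passed at d0, d2 or d4, with 1, 0 and 2 members at an unadjusted p under 0.05, while 3.6%, 0.564% and 7.49% of all tested probe sets passed in limma. In EBF1 against vector cells none passed at d0 or d2 (0 and 1 unadjusted; 0.814% and 1.54% of all passed). At d4, 3 members rose in EBF1 cells (10.3% of 29, with 18.9% of all passing). EBF1 against PPARg cells gave no passed member on any of the 4 days (1, 2, 0 and 2 unadjusted), with 6.02%, 5.15%, 5.95% and 1.33% of all passing.

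The 3 that rose in EBF1 cells at d4 were Rpl13a, Rpl39l and Rps27l. Rpl13a, a large-subunit protein that also takes part in translational silencing, read 569, 849 and 1088 (lowest, median, highest) on vector arrays and 855, 1106 and 1549 on EBF1 arrays, a log2 fold of 0.44 ± 0.16 (SE; limma adjusted p = 0.0419). Rps27l read 441, 537 and 777 against 470, 807 and 1001, a log2 fold of 0.45 ± 0.16 (adjusted p = 0.0372), and Rpl39l rose by 0.28 ± 0.089 (adjusted p = 0.0188). The groups overlap for all 3 genes. Rpl13a passed in session 1 (0.82, adjusted p = 0.0037) and not in sessions 2 (0.38, adjusted p = 0.66) or 3 (0.23, adjusted p = 0.39). Each call was lost on leaving out single arrays: Rpl13a and Rps27l without any of 8, and Rpl39l without EBF1 replicate 6 (0.24, adjusted p = 0.0608), vector replicate 1 (0.24, adjusted p = 0.0551) or vector replicate 4 (0.25, adjusted p = 0.0545). None passed when only these 2 groups were fitted, and none rose and 1 member fell when the arrays were centred on their medians.

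**Figure D3:**
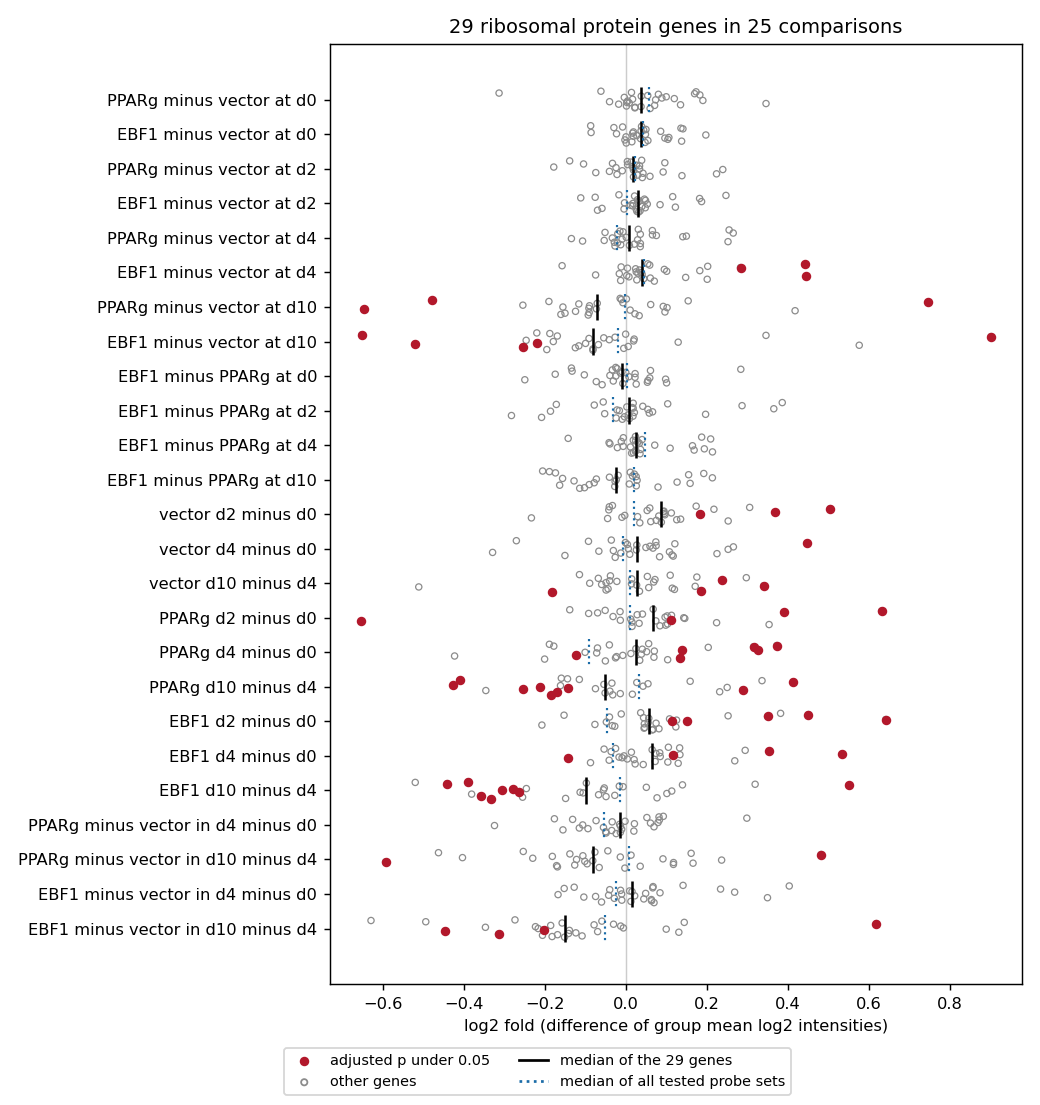
Log2 fold of each of the 29 tested ribosomal protein genes in each comparison, 1 point per gene, with genes past the limma threshold filled in red, a black bar at the median of the 29 genes and a dotted bar at the median of all tested probe sets. The largest rise past the threshold is 0.90 (Rpl39l, EBF1 against vector cells at d10) and the largest fall is -0.65 (Rps27l, PPARg cells from d0 to d2).

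At d10 a few members set both insert groups apart from vector cells, and these 2 comparisons share their vector arrays. With PPARg, 1 member rose (Rpl39l) and 2 fell (Rps24 and Rpl22), 10.3% of 29, while 23.6% of all tested probe sets passed. With EBF1, Rpl39l rose and Rps24, Rpl22, Rps3 and Rps18 fell, 17.2% of 29 against 18.3% of all. The median fold of the members was -0.07 with PPARg and -0.08 with EBF1, against -0.00 and -0.02 over all. Both shares lie below those of all tested probe sets. All d10 arrays lie in session 3, and when that session was fitted alone the same counts of members passed in both comparisons. In bulk RNA, fewer cells of a type and less RNA per cell cannot be told apart. The summed signal of adipocyte markers differed between the same groups: for the 8 of 10 with a probe set it was 3434 to 5216 on vector, 14390 to 14753 on PPARg, and 16462 to 19250 on EBF1 arrays. Bright genes weigh most in this sum: over all arrays Adipoq and Lpl reached 8028 and 8648, but Cd36 and Cebpa 163 and 195. The summed signal of 8 fibroblast markers was 28398 to 31939, 18474 to 19084, and 22647 to 22902 in these groups. Their part in the changes of ribosomal protein genes was not tested.

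Rpl39l, the paralog of the large-subunit protein Rpl39, gave the largest rise. Its signal was 1318, 1407 and 1559 on the vector d10 arrays, 1993, 2374 and 2888 on the PPARg arrays, and 2259 and 3136 on the EBF1 arrays. Every insert array lies above every vector array, and the PPARg and EBF1 ranges overlap. The log2 fold over vector was 0.75 ± 0.14 with PPARg (1.68-fold; limma adjusted p = 2.91e-05) and 0.90 ± 0.15 with EBF1 (1.87-fold; adjusted p = 9.37e-06), and neither call depended on any 1 array. EBF1 against PPARg gave 0.15 ± 0.15, which did not pass. The level of Rpl39, its partner, was under the floor throughout, so the pair cannot be set side by side.

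With all arrays fitted, Rpl39l rose from d4 to d10 in both insert groups. Vector arrays read 1157 to 1519 at d0, and 1251, 1528 and 1712 (lowest, median, highest) at d4. PPARg arrays at d4 read 1597, 1810 and 2077, and EBF1 arrays 1522, 1896 and 2152. From d4 to d10 Rpl39l rose by 0.41 with PPARg (adjusted p = 0.0077) and by 0.55 ± 0.13 with EBF1 (adjusted p = 0.0023). The d4 to d10 change exceeded that of vector cells by 0.48 ± 0.16 with PPARg (adjusted p = 0.045) and by 0.62 ± 0.18 with EBF1 (adjusted p = 0.0247). These changes over time rest on single arrays: without EBF1 d10 replicate 1 they were 0.31 (adjusted p = 0.37) and 0.38 (adjusted p = 0.655), and without PPARg d10 replicate 3 they were 0.28 (adjusted p = 0.123) and 0.35 (adjusted p = 0.186). The differences from vector cells were lost without any of 12 single arrays with PPARg and of 3 with EBF1. Within session 3 alone the 2 differences were 0.51 and 0.76 and did not pass, and neither did the rise within either insert group. The vector d4 arrays of that session read 1593 to 1712, above every vector d10 array, so the differences there include a lower vector signal at d10.

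**Figure D4:**
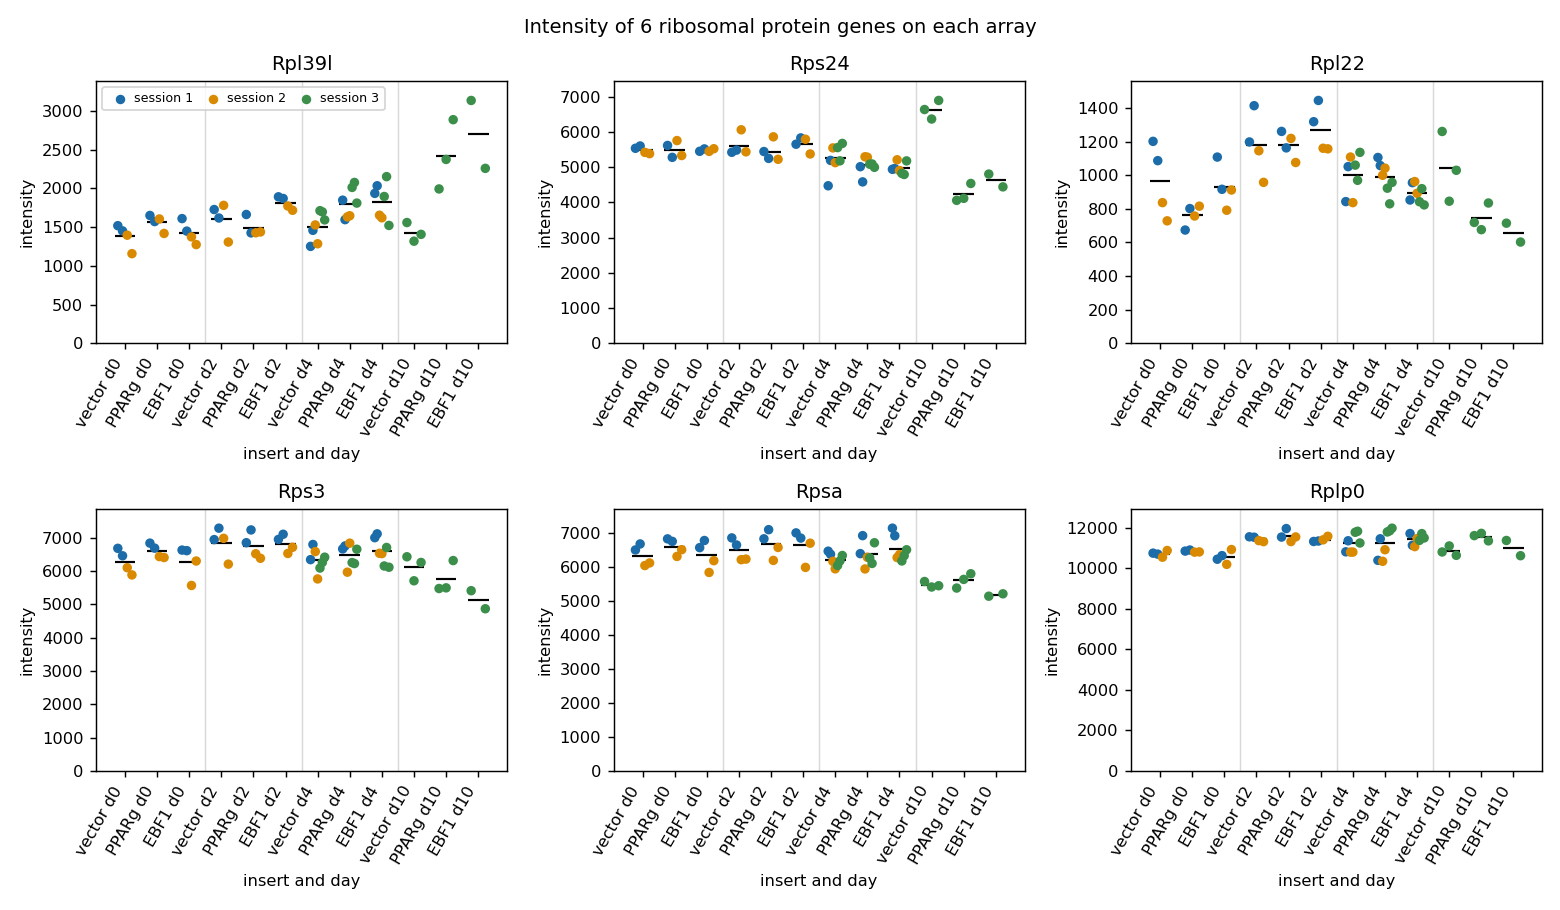
Intensity (linear axis from 0) of Rpl39l, Rps24, Rpl22, Rps3, Rpsa and Rplp0 by insert and day, 1 point per array coloured by session, with a bar at each group's mean. At d10 the Rpl39l signal is 1318 to 1559 with vector and 1993 or more with either insert, whereas Rps24 is 6363 to 6889 with vector and 4801 or less with either insert.

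Rps24, a small-subunit protein that is mutated in some people with Diamond-Blackfan anemia, gave the clearest fall. Over the d0, d2 and d4 arrays of all groups its signal ran from 4469 to 6057. At d10 it was 6363, 6632 and 6889 on vector arrays, 4055, 4113 and 4534 on PPARg arrays, and 4438 and 4801 on EBF1 arrays. The vector arrays of d10 lie above all earlier arrays, and the insert arrays lie below them by a wide gap. The log2 fold against vector was -0.65 ± 0.062 with PPARg (1.57-fold lower; limma adjusted p = 1.75e-11) and -0.52 ± 0.070 with EBF1 (1.44-fold lower; adjusted p = 8.06e-08).

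Vector and PPARg cells moved in opposite directions. From d4 to d10 Rps24 rose by 0.34 ± 0.053 in vector cells (adjusted p = 1.91e-06) and fell by 0.25 in PPARg cells (adjusted p = 0.00031), and the change of -0.11 ± 0.061 in EBF1 cells did not pass (adjusted p = 0.292). The change differed from that of vector cells by -0.59 ± 0.075 with PPARg (adjusted p = 1.21e-07) and by -0.45 ± 0.081 with EBF1 (adjusted p = 0.000123), and none of the calls that passed was lost without any 1 array. In session 3 alone the PPARg difference was -0.54 (adjusted p = 0.0079) and the EBF1 difference -0.37 (adjusted p = 0.055). The assignment to Rps24 is uncertain: this probe set lists the same sequence record as the one used for Rpl7, and its name marks possible matches to other transcripts. A second, dimmer Rps24 probe set gave -0.14 ± 0.17 with PPARg and -0.16 with EBF1 at d10 and did not pass. Rpl7, a large-subunit protein, gave -0.12 and -0.09 and did not pass either, although it rose by 0.24 in vector cells from d4 to d10 (adjusted p = 0.0088; 0.16 and adjusted p = 0.24 in session 3 alone).

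Rpl22, an RNA-binding large-subunit protein that mice can do without, fell with both inserts. At d10 it read 845, 1029 and 1261 on vector arrays, 676, 719 and 835 on PPARg arrays, and 602 and 715 on EBF1 arrays, and no insert array reached the lowest vector array. The log2 fold was -0.48 ± 0.15 with PPARg (limma adjusted p = 0.013) and -0.65 ± 0.17 with EBF1 (adjusted p = 0.00276). The PPARg call was lost without vector replicate 1 (-0.33, adjusted p = 0.164) or PPARg replicate 2 (-0.41, adjusted p = 0.0753), and the EBF1 call without EBF1 replicate 2 (-0.53, adjusted p = 0.0825). A second, dimmer Rpl22 probe set gave 0.04 in both comparisons and did not pass.

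Rps3, which lines the messenger RNA entry of the small subunit and also acts in DNA repair, and Rps18, a reference gene, fell with EBF1. Rps3 read 5711, 6261 and 6432 on vector d10 arrays and 4871 and 5414 on EBF1 arrays, a log2 fold of -0.25 ± 0.079 (limma adjusted p = 0.0167). Rps18 read 8531, 9152 and 9260 against 7316 and 8117, a log2 fold of -0.22 ± 0.053 (adjusted p = 0.00157). Neither gene's groups overlap, but PPARg arrays bridge them, with 5479 to 6318 for Rps3 and 7901 to 9035 for Rps18. Both calls were lost without EBF1 d10 replicate 2 (Rps3 -0.18, adjusted p = 0.277; Rps18 -0.15, adjusted p = 0.143), and that of Rps3 also without vector replicate 1 (-0.22, adjusted p = 0.0869) or 3 (-0.24, adjusted p = 0.0571). Without EBF1 d10 replicate 2, 1 member rose and 1 fell.

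From d4 to d10 more members fell than rose in the insert groups. In vector cells 3 rose (Rps24, Rpl7 and Rps4x) and 1 fell (Rpsa), 13.8% of 29, with 18.4% of all tested probe sets passing in limma. In PPARg cells 2 rose and 7 fell (31%, with 18.2% of all). In EBF1 cells 1 rose and 7 fell (27.6%, with 15.1% of all), and 22 of the 29 folds were below 0, with a median of -0.10. In session 3 alone, which holds every d10 array and 3 d4 arrays a group, the counts were 1 up and 0 down, 0 up and 2 down, and 0 up and 4 down. The shares of all tested probe sets that passed in session 3 alone are not given here. Rps4x, the X-linked small-subunit protein, rose by 0.19 in vector cells (adjusted p = 0.0439), and this turned to -0.06 (adjusted p = 0.843) when all probe sets of the gene were averaged. That call was also lost without any of 7 single arrays.

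In EBF1 cells the members that fell were Rpsa, Rps3, Rps10, Rps18, Rpl10a, Rpl8 and Rpl22, 4 of the small and 3 of the large subunit. Rpsa, also known as the laminin receptor precursor, read 6179, 6365 and 7144 (lowest, median, highest) at d4 and 5142 and 5212 at d10, a log2 change of -0.33 ± 0.060 (adjusted p = 4e-05). Rps10 read 6659, 7220 and 7651 at d4 and 5676 and 5883 at d10 (-0.31 ± 0.063, adjusted p = 0.000277). Rps18 went from 8561, 9384 and 9649 to 7316 and 8117 (-0.26 ± 0.046, adjusted p = 2.74e-05). For each of the 7 genes both d10 arrays lie below all 7 d4 arrays. These genes were picked as passed falls, and the share of all tested probe sets that separate in this way was not counted. The lack of overlap therefore adds no support to the calls.

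Rps3 fell by 0.36 ± 0.069 in the same comparison (adjusted p = 0.000121), and Rpl10a, Rpl22 and Rpl8, all of the large subunit, fell by 0.39, 0.44 and 0.28. Rpl10a read 4076 to 4729 at d4 and 3040 and 3723 at d10. Its call was lost without EBF1 d10 replicate 2 (-0.24, adjusted p = 0.302), and that of Rpl22 without replicate 1 (-0.57, adjusted p = 0.071) or 2 (-0.32, adjusted p = 0.347). Within session 3, Rpsa (-0.29, adjusted p = 0.0077), Rps3 (-0.30, adjusted p = 0.03), Rps10 (-0.25, adjusted p = 0.036) and Rpl10a (-0.41, adjusted p = 0.028) passed, and Rps18 (-0.20, adjusted p = 0.091) and Rpl22 (-0.39, adjusted p = 0.13) did not.

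Rpsa fell in all 3 groups over this interval. It dropped by 0.18 in vector cells (adjusted p = 0.0084), where it read 5947 to 6467 at d4 and 5412 to 5574 at d10, by 0.18 in PPARg cells (adjusted p = 0.008) and by 0.33 in EBF1 cells. Session 3 alone gave -0.18 in vector cells, which did not pass (adjusted p = 0.063). At d10 the EBF1 arrays read 5142 and 5212, below the vector arrays, but the difference of -0.08 ± 0.068 did not pass. In PPARg cells the other members that fell were Rpl7l1, Rpl22, Rps24, Rps10, Rps3 and Rps18, by 0.14 to 0.43, and Rpl39l and Rps27, the small-subunit partner of Rps27l, rose by 0.41 and 0.29. Of these 9 genes, Rpl7l1 (-0.59, adjusted p = 0.0052) and Rps24 (-0.26, adjusted p = 0.019) passed within session 3. Without PPARg d10 replicate 1, 1 rose and 1 fell: Rpsa (-0.16, adjusted p = 0.0889), Rps18 (-0.10, adjusted p = 0.188), Rps3 (-0.14, adjusted p = 0.245) and Rpl7l1 (-0.35, adjusted p = 0.0982) were among those lost.

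The change from d4 to d10 was itself compared between insert and vector cells. With EBF1 the difference passed for Rpl39l and Rps24 (above), for Rps3 (-0.31 ± 0.091, limma adjusted p = 0.0275) and for Rps18 (-0.20 ± 0.061, adjusted p = 0.036), 13.8% of 29 with 5.63% of all tested probe sets passing. The median over the members was -0.15, against -0.05 over all tested probe sets, and 25 of 29 values were below 0. The 19 members with a mean log2 of at least 12 were all below 0 (median -0.158), while of the 28 other probe sets as bright 14 were below and 14 above 0 (median -0.03). In session 3 alone, 16 of the 19 were below 0 (median -0.11) and no member passed. With all arrays, several lists of related genes, described below, had medians below 0 as well. These were -0.16 for ribosome assembly genes, -0.13 for initiation factors, -0.11 for elongation factors and -0.37 for other genes with the pyrimidine start. The S6 kinase and mTOR list gave -0.01, and Fau gave 0.02. In session 3 alone the median was 0.01 for initiation factors (13 above and 11 below 0) and -0.02 for elongation factors (2 above and 2 below 0). It was 0.05 for the S6 kinase and mTOR list there. All these values rest on the same 2 EBF1 d10 arrays. Without EBF1 d10 replicate 2 the differences of Rps3 (-0.24, adjusted p = 0.253) and Rps18 (-0.13, adjusted p = 0.422) did not pass; each was lost on leaving out any of 3 and 7 single arrays, respectively. With PPARg 2 members passed (6.9%, with 11.5% of all). Between d0 and d4 no member's change differed from that of vector cells with either insert (0 at an unadjusted p under 0.05 each), and 1.64% and 7.26% of all passed. Session 1 alone gave 5 such members with PPARg and 2 with EBF1, and session 2 gave none. The shares of all probe sets are from the fit of all arrays, so these session counts have no background beside them. Of 24 initiation factors, 9 passed upward and 1 downward with PPARg in session 1 alone, and none with all arrays.

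Probe sets that list a ribosomal protein symbol beside others were counted apart. Of the 35 tested, 12 fell and none rose in EBF1 against vector cells at d10 (34.3%, median -0.20), where 18.3% of all tested probe sets passed in either direction. With PPARg, 8 fell and none rose (22.9%, median -0.13), close to the 23.6% of all that passed. Under quantile normalization these became 1 up and 19 down, and 3 up and 7 down (median -0.04). From d4 to d10 in EBF1 cells 16 fell and none rose (45.7%, median -0.22, against 15.1% of all in either direction), with 9 falling in session 3 alone, and in vector cells 2 rose and 1 fell. Between EBF1 and PPARg cells at d10 none passed on the deposited scale, and 4 fell under quantile normalization, with 34 of 35 values below 0 (median -0.19). These probe sets may read several ribosomal protein genes or pseudogenes at once, and some may share transcripts with the members, so they are not independent of them.

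Array scale weighed on the d10 counts. The brightness of the upper end differed between arrays. The 99th percentile of all probe sets was 4020 on EBF1 d10 replicate 1 and 3148 on replicate 2. It was 2742 to 3219 on vector d10, 2847 to 3547 on PPARg d10 and 2565 to 3378 on EBF1 d4 arrays. Only EBF1 d10 replicate 1 lies above the ranges of these groups. When the arrays were quantile normalized, which forces the same distribution on each, 16 members fell and 1 rose in EBF1 cells from d4 to d10 (median -0.20), and 10 fell and 1 rose in EBF1 against vector cells at d10 (median -0.12). In vector cells from d4 to d10, 8 then fell and 1 rose. In EBF1 against PPARg cells at d10, where no member passed on the deposited scale, 7 fell under quantile normalization (median -0.12), among them Rps18 (-0.28, adjusted p = 0.00032) and Rps3 (-0.39, adjusted p = 0.0004). With PPARg against vector cells the same step gave 4 up and 2 down (median 0.01). The size and number of small falls among bright members therefore depend on the scaling, and no scaling tried moved the median of all tested probe sets by more than 0.08. The shares of all tested probe sets that passed under quantile normalization are not given here. Whether the larger counts exceed those shares cannot be read from them.

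The first 2 days after hormones brought small rises in a few members. In vector cells 3 rose from d0 to d2 and none fell (10.3% of 29, with 21.5% of all tested probe sets passing in limma): Rpl37a, Rpl7l1 and Rps10. In PPARg cells Rpl22, Rpl37a and Rps19 rose and Rps27l fell (13.8%, with 23.6% of all). In EBF1 cells Rpl7l1, Rpl22, Rpl39l, Rps10 and Rplp0 rose (17.2%, with 22.2% of all). The rise of Rpl37a in PPARg cells (0.39) was lost without any of 5 single arrays, at log2 folds from 0.34 to 0.39 and adjusted p from 0.054 to 0.0967. That of Rpl39l in EBF1 cells (0.35) was lost without any of 4, at log2 folds from 0.30 to 0.33 and adjusted p from 0.061 to 0.104. The members' median was 0.09, 0.07 and 0.06 in the 3 groups. From d0 to d4, 1 member rose in vector (3.45%, with 24.2% of all), 5 rose and 1 fell in PPARg (20.7%, with 31.9% of all) and 3 rose and 1 fell in EBF1 cells (13.8%, with 33.3% of all). Within sessions 1 and 2 the d0 to d2 rises numbered 4 and 1 in vector, 2 and 3 in PPARg, and 3 and 1 in EBF1 cells. The shares of all tested probe sets that passed within these sessions are not given here.

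Rpl37a, a zinc-binding large-subunit protein, read 4490 to 5315 in vector cells at d0 and 6794 to 7162 at d2, with no overlap (0.50 ± 0.14, adjusted p = 0.0041). It rose by 0.50 in session 1 and 0.51 in session 2, and both passed. Its d4 values split by session. Vector arrays read 5783 to 5820 in session 1, 5668 to 5906 in session 2 and 7515 to 8600 in session 3, and the PPARg and EBF1 arrays show the same step, with 7772 to 8829 and 7354 to 8098 in session 3. The d0 to d4 rise of 0.45 in vector cells (adjusted p = 0.0037) was 0.25 in session 1 (adjusted p = 0.016) and 0.23 in session 2 (adjusted p = 0.15). In PPARg cells a pooled rise of 0.32 (adjusted p = 0.0384) was -0.02 and 0.11 within sessions and did not pass.

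Rpl7l1, a relative of Rpl7 whose yeast counterpart acts in ribosome assembly, read 107 to 124 in EBF1 cells at d0 and 172 to 194 at d2, a rise of 0.64 ± 0.12 (1.56-fold; limma adjusted p = 4.8e-05) that passed within both sessions (0.60 and 0.69). It was still up by 0.53 at d4 (adjusted p = 7.77e-05), by 0.64 in session 1 (adjusted p = 0.00084) and 0.41 in session 2 (adjusted p = 0.19). The vector rise of 0.37 from d0 to d2 (adjusted p = 0.0231) was lost without vector d0 replicate 4 (0.28, adjusted p = 0.1) or d2 replicate 1 (0.30, adjusted p = 0.123) or 3 (0.34, adjusted p = 0.0675).

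Rpl22 in PPARg cells went from 674 to 816 at d0 up to 1076 to 1261 at d2, a rise of 0.63 ± 0.13 (1.55-fold; adjusted p = 0.000121) with no overlap, and by 0.72 and 0.54 within the sessions. It rose by 0.45 in EBF1 cells (adjusted p = 0.0065), and the later fall to d10 is given above. Rps27l moved the other way in PPARg cells, from 684 to 1182 at d0 to 516 to 664 at d2 (-0.65 ± 0.21, adjusted p = 0.0153), and this call was lost without PPARg d0 replicate 3 (-0.60, adjusted p = 0.0534) or 4 (-0.52, adjusted p = 0.0877). Rps19, also mutated in Diamond-Blackfan anemia, rose by 0.11 in PPARg cells (adjusted p = 0.0259) and lost that call without any of 4 arrays, such as PPARg d0 replicate 2 (0.09, adjusted p = 0.135).

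Among the members often used as reference genes, Rplp0 and Rpl19 moved least. Rplp0 at d10 read 10650, 10816 and 11114 on vector, 11364, 11624 and 11735 on PPARg, and 10632 and 11383 on EBF1 arrays. The PPARg arrays lie above the vector arrays, but the difference of 0.09 ± 0.043 did not pass (limma adjusted p = 0.13). Rplp0 rose by 0.11 from d0 to d2 and by 0.12 from d0 to d4 in EBF1 cells (adjusted p = 0.0208 and 0.0048). The first of these was lost without EBF1 d0 replicate 1 (0.11, adjusted p = 0.0503) or 3 (0.10, adjusted p = 0.0825) or d2 replicate 4 (0.11, adjusted p = 0.057). Rpl19 group means stayed between 7324 and 8143, and it passed in no comparison. Rpl13a was the least steady of them, with group means from 790 to 1351. Rps18 and Rps3 fell in EBF1 cells as described, and Rpl32 was below the filter. Rps6, Rplp1, Rplp2, Rpl3, Rpl5, Rpl10, Rpl11 and Rps27a had no probe set with a symbol of their own and are not analysed here.

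The paralogs differed from each other. Rpl39l and Rps27l changed as given, Rpl7l1 rose early, and Rps4l, the paralog of Rps4x, passed in no comparison, with group means spanning 0.60. Rps27 rose in PPARg cells from d4 to d10 (0.29, adjusted p = 0.0243) while Rps27l read 438 to 708 on PPARg d10 arrays and 339 to 473 on vector d10 arrays, a difference of 0.42 ± 0.24 that did not pass. The 9 further probe sets of members with more than 1 passed in no comparison.

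The genes that build ribosomes were counted over the same comparisons. Of 43 tested genes for ribosome assembly and the nucleolus (52 listed), 19 rose and none fell in vector cells from d0 to d2 (median 0.34), 6 rose and 1 fell in PPARg cells (median 0.03), and 29 rose and none fell in EBF1 cells (median 0.54). Over all tested probe sets 21.5%, 23.6% and 22.2% passed in either direction, so the PPARg count lies below the background. Within sessions 1 and 2, 11 and 10 rose in vector and 25 and 23 in EBF1 cells. In PPARg cells 6 rose and 2 fell in session 1 and none rose and 1 fell in session 2, and 12 rose and none fell under quantile normalization. From d4 to d10, 17, 26 and 25 of the 43 fell in vector, PPARg and EBF1 cells and none rose (medians -0.30, -0.37 and -0.49), where 18.4%, 18.2% and 15.1% of all passed, and in session 3 alone 18, 20 and 25 fell. The members' medians for the same interval were 0.03, -0.05 and -0.10.

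Myc, the transcription factor that drives ribosome production, stands in this list and read 110 to 148 on vector d0 arrays and 269 to 385 at d2, a rise of 1.52 (limma adjusted p = 1.51e-14). In EBF1 cells it went from 99.6 to 129 up to 467 to 550, a rise of 2.07 (adjusted p = 4.6e-19). PPARg cells already read 202 to 280 at d0, above every vector and EBF1 array of that day. From d4 to d10 Myc changed by -1.58 in vector and -1.67 in EBF1 cells, and in PPARg cells it also fell, to 192 to 227 at d10. Npm1, nucleophosmin, a nucleolar protein whose messenger RNA also has the pyrimidine start, fell by 0.44 in EBF1 and 0.33 in PPARg cells (adjusted p = 1.81e-05 and 0.000162), and at d10 read 3415 to 3810 on vector, 2710 to 3238 on PPARg, and 2512 and 3061 on EBF1 arrays.

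**Figure D5:**
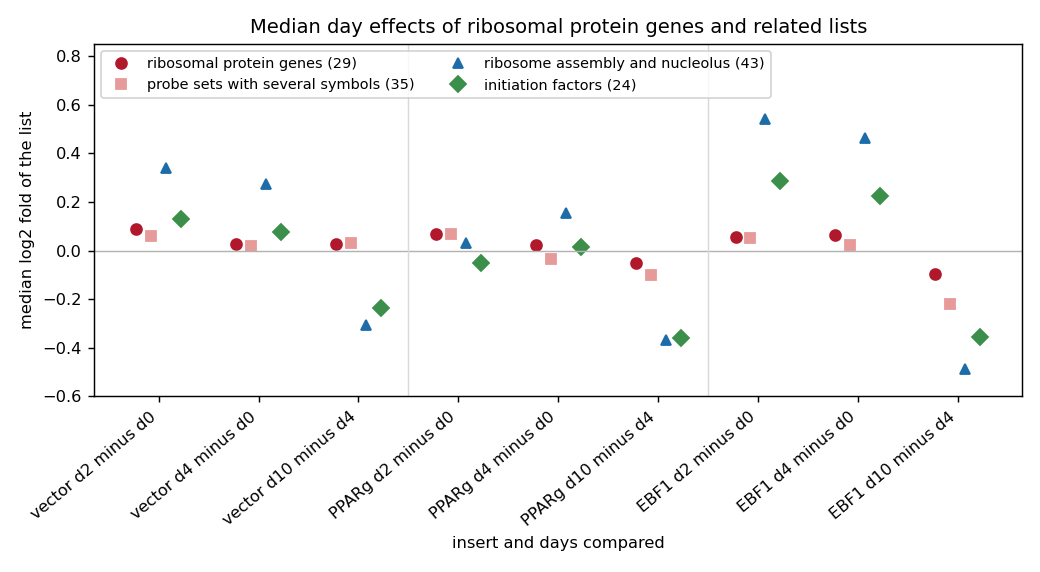
Median log2 fold between days, by insert, of the 29 ribosomal protein genes, the 35 probe sets with several symbols, 43 ribosome assembly genes and 24 initiation factors; each marker is the median of 1 list. The ribosome assembly genes rise by 0.54 from d0 to d2 and fall by 0.49 from d4 to d10 in EBF1 cells, while the ribosomal protein genes stay within 0.10 of 0.

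Of 24 tested initiation factors (33 listed), 11 rose and none fell in EBF1 cells from d0 to d2 (median 0.29), where 22.2% of all tested probe sets passed, with 5 rising and 1 falling in session 1 alone and 4 rising in session 2. Between d4 and d10, 14 fell and none rose in PPARg cells (median -0.36, with 18.2% of all passing), and 11 fell in session 3 alone. In EBF1 cells 11 fell and 1 rose (median -0.36, with 15.1% of all), but in session 3 alone 3 fell and none rose. Eif2b1, a subunit of the nucleotide exchange factor of initiation, rose by 1.22 in EBF1 cells from d0 to d4 (limma adjusted p = 7.58e-13). Of 8 tested other genes whose messenger RNAs start with the pyrimidine tract (9 listed), 3 fell and none rose in EBF1 cells from d4 to d10 (median -0.32). Of 4 tested elongation factors (6 listed), Eef1a1, which carries aminoacyl-tRNA to the ribosome, rose by 0.25 in EBF1 cells over that interval (adjusted p = 0.000515) and by 0.15 in PPARg cells (adjusted p = 0.0196). In PPARg cells no elongation factor rose under quantile normalization, median centring, a session block or in session 3 alone, and 1 fell under the first and the third of these. Of the ribosomal proteins with other names (3 listed), Fau was tested and rose by 0.35 in PPARg cells from d4 to d10 (adjusted p = 0.0227).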

How the data were processed

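The deposited series table holds linear probe set intensities, already scaled between arrays by the authors; the probe summary algorithm and the scaling target are not given in the sources used here, and neither is a genome build. 53 total RNA samples were hybridised to 1 single-colour array each, and the number of arrays per group (2 to 7) limits the precision. Of 12488 probe sets, 66 controls were left out. The platform annotation gives 1 gene symbol to 10833 of the others, several to 396 and none to 1193; 10817 of the first were matched to current gene records.

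Intensities under 54.5 (the 20th percentile of all values) were set to that floor and log2 values were taken. Probe sets above 158, the median of all values, on at least 2 arrays were tested (7619). limma 3.58.1 in R 4.3.3 was fitted to the 12 group means of all arrays, with moderated variances that follow the signal and Benjamini-Hochberg adjustment within each comparison (threshold 0.05); the script was tested on simulated data. Inserts were compared with vector and with each other on each day, days within each group, and day effects between insert and vector. A gap of more than 30 days between successive recorded dates started a new session. Replicate numbers were checked for pairing. Of the comparisons with more than 2 same-numbered pairs, only EBF1 against vector cells at d2 had every pair correlate above 0.1 (0.62 to 0.68 over 4 pairs). No ribosomal protein gene passed there with or without the block. In EBF1 against vector cells at d10 both of the 2 pairs also correlated (0.58 and 0.69), but comparisons with 2 pairs were not counted as paired.

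Named genes were common reference members, members with a role of their own, paralogs, up to 3 rises and 3 falls per comparison among members past the test whose groups do not overlap, the 5 widest and 5 narrowest spans, and up to 2 rises and 2 falls of each comparison list. The members, lists and tests were chosen with earlier results of these data known. Probe sets whose name marks matches to other transcripts stand for 9 members, and pseudogene signal cannot be separated, so values of single members are uncertain to that extent. Alternatives were quantile normalization, median centring, other floors and filters, all probe sets of a gene averaged, session and replicate blocks, fits of the compared groups alone, and leaving out each array. Each share of all tested probe sets that passed is from the fit of all arrays on the deposited scale. Counts under an alternative or in a single session have no such share beside them.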

Additional observations from a re-analysis of the deposited data

Results flagged for a closer look

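Of 153 groups of 4 to 7 arrays tested for a single array far from its group, 7 had one, and chance gives about 1 in 20. Rpl19 read 7410 on vector d0 replicate 4 against 8251 to 8322 on the others. Rpl10a read 3866 on PPARg d0 replicate 1 (others 4251 to 4315). Rps24 read 6057 on vector d2 replicate 3 (others 5419 to 5481) and 4579 on PPARg d4 replicate 2 (others 4992 to 5292). Rpl39l read 1663 on PPARg d2 replicate 1 (others 1426 to 1438). Rps10 read 9063 on EBF1 d2 replicate 4 (others 7510 to 7721). Rpl41 read 12802 on vector d4 replicate 2 (others 13693 to 14060).

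The change from d4 to d10 differed between insert and vector cells, by a test of the difference in limma, for Rpl39l (0.48 with PPARg and 0.62 with EBF1), Rps24 (-0.59 and -0.45), Rps3 (-0.31 with EBF1) and Rps18 (-0.20 with EBF1). The first 2 genes passed with both inserts, which share their vector arrays.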

How the results depend on the processing

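Over 545 recomputed medians of the members' log2 folds, 9 moved by more than the spread between arrays. Under quantile normalization the median was 0.0025 (EBF1 against vector, d0), 0.0067 (PPARg against vector, d10), -0.12 (EBF1 against PPARg, d10), -0.20 (EBF1, d4 to d10) and 0.014 (PPARg against vector in the d4 to d10 change). Median centring gave -0.022 with PPARg and -0.0028 with EBF1 against vector at d0. Session 1 alone gave 0.096 in EBF1 against vector cells at d4 and 0.064 in their d0 to d4 change. The rise of Rps4x in vector cells from d4 to d10 became -0.056 with all probe sets of the gene averaged. The cause was not tested. Without single arrays, of 51 calls of named genes 23 were kept throughout and 28 were lost at least once; the median ran from -0.12 to -0.083 (EBF1, d4 to d10), from -0.11 to -0.073 (EBF1 against vector, d10) and from -0.11 to -0.023 (PPARg against vector, d10), and the number of members passed from 5 to 9, from 2 to 6 and from 2 to 5.

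Counts also moved (members up and down, on the deposited scale first). Quantile normalization took EBF1 d4 to d10 from 1 and 7 to 1 and 16, EBF1 against vector at d10 from 1 and 4 to 1 and 10, PPARg against vector at d10 from 1 and 2 to 4 and 2, EBF1 against PPARg at d10 from 0 and 0 to 0 and 7, vector d4 to d10 from 3 and 1 to 1 and 8, and EBF1 d0 to d4 from 3 and 1 to 7 and 1. Fitting the compared groups alone gave 1 and 1 in EBF1 against vector cells at d10, 1 and 4 in PPARg cells from d4 to d10 and 2 and 0 from d0 to d4. Without the filter, EBF1 against vector at d4 gave 1 and 0, PPARg d0 to d4 gave 3 and 0, and EBF1 d0 to d2 gave 3 and 0. A session block gave 1 and 7 in EBF1 and 2 and 4 in PPARg against vector cells at d10. With the replicate number as a block, these were 2 and 7 and 2 and 5, with 5 and 10 in PPARg and 6 and 2 in vector cells from d4 to d10. Every same-numbered pair correlated above 0.1 in EBF1 against vector cells at d2 and at d10, where there are 2 pairs (0.58 and 0.69). In the other comparisons of 2 groups not every pair did. The stricter filter moved no count by over 1.5 times. With 2 EBF1 arrays at d10, single arrays decide several small falls, and members near the floor cannot show a fall.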

Other observations

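Among 10 tested genes of the S6 kinase and mTOR pathway (20 listed), Ddit4, an inhibitor of mTOR complex 1 that glucocorticoids induce, had the largest changes between days. It rose by 0.98, 0.40 and 0.53 from d0 to d2 in vector, PPARg and EBF1 cells and by 2.09, 1.55 and 1.39 from d0 to d4, and changed by -1.90, -1.95 and -1.55 from d4 to d10 (limma). Eif4ebp2, a repressor of cap-dependent initiation, rose by 0.54 in vector and 0.72 in PPARg cells from d0 to d4. Akt1, a kinase upstream of mTOR, was lower at d10 with PPARg (-0.63, adjusted p = 0.00012) and EBF1 (-0.45, adjusted p = 0.0187) than with vector. Arrays measure RNA, so neither kinase activity nor translation can be read from these values.

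At d10 Nhp2, a protein of the small nucleolar particles that modify ribosomal RNA, was higher with PPARg (1.16) and EBF1 (0.87) than with vector, whereas Ncl, nucleolin, was lower with EBF1 (-0.56). Both belong to the ribosome assembly list, of which 5 genes were higher and 4 lower with PPARg and 3 higher and 2 lower with EBF1 at that day. Of all tested probe sets 23.6% and 18.3% passed in these comparisons, so both counts of 43 lie below the background.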
